A study of Caenorhabditis elegans with 20 samples.

Results

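The comparison described here sets lin-35 mutants directly against htz-1 mutants at the third larval stage (L3) of the nematode Caenorhabditis elegans. It rests on 4 RNA-seq libraries, 2 of each mutant, and on the 9679 genes, of 15568 in the deposited table, with a mean of at least 1 RPKM over 6 libraries. RPKM counts a gene's reads after correction for its length and for the size of the library. The other 2 of those 6 libraries are wild type (N2) and serve only to say which mutant left the wild-type level. The whole series holds 20 samples, most of them ChIP-seq libraries that were not used here. The mRNA of whole larvae was measured in every case.

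LIN-35 is the only pocket protein of the worm, the relative of mammalian Rb and p130. It forms the DREAM complex with the E2F factor EFL-1, its partner DPL-1 and the MuvB core of LIN-9, LIN-37, LIN-52, LIN-53 and LIN-54. DREAM is known as a repressor of cell cycle genes, and in the worm soma it also keeps germline genes low. HTZ-1 is the histone variant H2A.Z, which the SWR1-type remodeller with its ATPase SSL-1 places near gene starts. The study connects DREAM to H2A.Z at DREAM-bound genes, and the direct comparison asks which genes differ between lin-35 mutant and htz-1 mutant larvae.

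The lin-35 larvae carried lin-35(n745), an outcrossed nonsense allele, and are strain JA1507 in the labels. The htz-1 larvae were homozygous for htz-1(ok3099) and came from mothers that also carried the nT1[qIs51] balancer, so that their mothers could supply HTZ-1. The study therefore treats these larvae as a partial loss of HTZ-1 function. Their strain is VC2490 in the labels but VC2480 in the study's methods. The N2 larvae are the standard laboratory wild type. All larvae hatched without food over 24 to 42 h, were grown in liquid culture to L3 and, by the study's methods, were kept at 20 °C. The lin-35 and N2 larvae were cleaned on sucrose, while the htz-1 larvae were sorted on a COPAS instrument for lack of the balancer's GFP, and this sorting and the genotype cannot be told apart. The sample names of the lin-35 and N2 libraries also share number tags that those of htz-1 lack. What the tags stand for is not given, and whatever they mark cannot be told apart from the htz-1 genotype in any comparison with htz-1. Whether a genotype's 2 libraries stem from 1 culture or from 2 is not given, and every p-value here rests on the spread of these libraries alone, which may be technical.

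The libraries held between 13604791 and 18301926 reads, of which 73.85% to 77.17% lay in the listed genes. Replicates of a mutant were close (Pearson's r across genes of log2 values 0.982 for lin-35 and 0.987 for htz-1), and lin-35 with htz-1 libraries gave 0.903 to 0.928. The lin-35 transcript was at 12.8 and 13.3 RPKM in lin-35 larvae, against 13.5 and 11.8 RPKM in htz-1 larvae and 12.1 and 11.1 RPKM in N2, which is no check of the labels for a nonsense allele. The transcript of htz-1 was at 138 and 155 RPKM in lin-35 larvae, against 65.6 and 27.8 RPKM in htz-1 larvae and 78.5 and 81.3 RPKM in N2. It was higher in lin-35 (log2 difference 1.59, standard error 0.33, adjusted p = 0.0128 from limma), a call that was lost without the second lin-35 library (1.48, adjusted p = 0.0566 from limma). Neither mutant's htz-1 level passed the test against N2, and reads counted over the whole gene do not show whether the deleted part is gone. Adult markers were low in all libraries: the yolk gene vit-2 and the sperm genes gsp-3 and msp-142 were under 1 RPKM, and the oocyte markers rme-2, oma-1, oma-2 and cbd-1 summed to between 10.8 and 21.3 RPKM. lin-41, a gene of the developmental timing pathway, was at 36 and 35.3 RPKM in lin-35 larvae, against 29.3 and 17.3 RPKM in htz-1 larvae and 62.9 and 61.1 RPKM in N2. It was called below N2 in both mutants, it was not called between them (0.48, adjusted p = 0.118 from limma), and the part of developmental timing in the results was not tested.

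In the direct comparison 1484 genes were higher (15.3% of those tested) and 1405 were lower (14.5%) in lin-35 than in htz-1 larvae, by limma on log2(RPKM + 0.5), called where the adjusted p was below 0.05. All differences below are lin-35 minus htz-1 on that scale unless another is named, and the added 0.5 makes them smaller than the true change for low genes. The counts of each gene list below stand beside these shares of 15.3% higher and 14.5% lower. Over all tested genes the 2 counts were close to equal, but the sizes of the differences were not. A difference of over 1 log2 unit was found for 650 higher and 270 lower genes, over 2 units for 234 and 52, and over 3 units for 106 and 17. The median difference was 0.88 among the higher genes and -0.64 among the lower ones. In whole larvae, fewer cells of a type and less RNA per cell cannot be told apart. Under stricter thresholds (adjusted p below 0.001, more than 1.5-fold, and both mutants over 1 RPKM) 250 genes passed (2.58%), 187 higher and 63 lower.

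The scaling and single libraries bear on these totals. With the RPKM as deposited, without size factors, the median of all tested genes was 0.16 and the counts were 2286 higher and 815 lower, so that 73.7% of the calls were higher in lin-35, against 51.4% after scaling. Without the second htz-1 library the counts were 859 higher and 622 lower, and without the first lin-35 library 966 and 782. The 250 genes of the stricter set became 13 without the first lin-35 library, 53 without the second, 50 and 48 without the first and second htz-1 libraries, and 93 and 96 without the first and second N2 libraries.

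**Figure D1:**
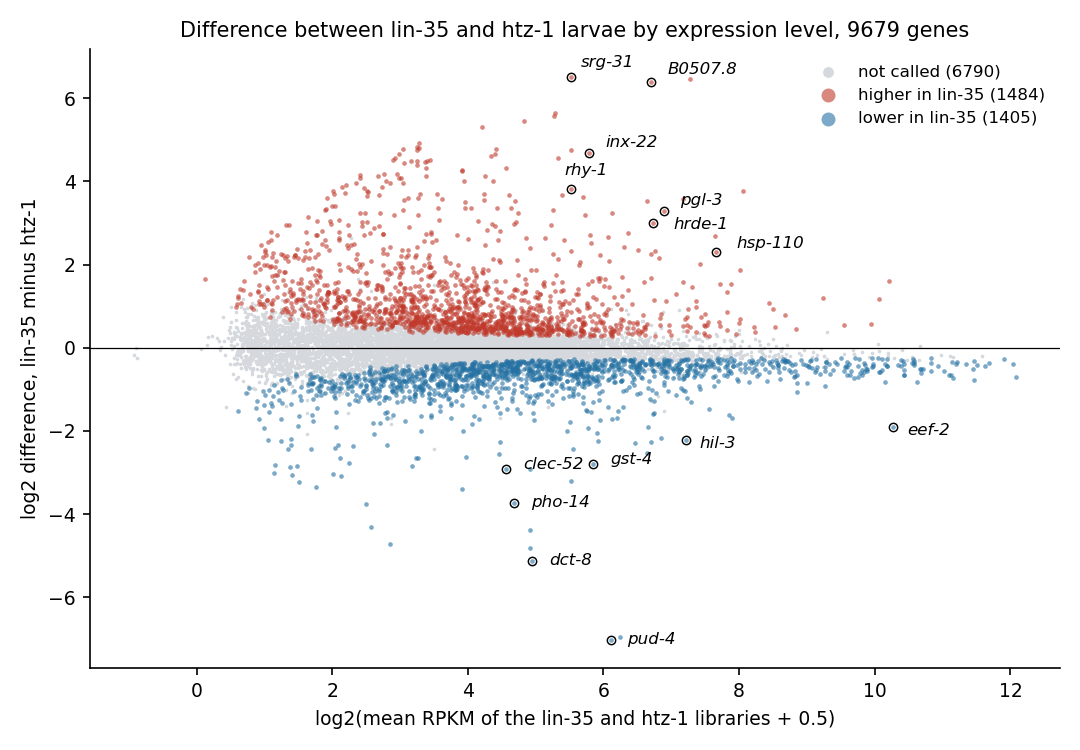
Each point is 1 of the 9679 tested genes, with its level (log2 of the mean RPKM of both mutants + 0.5) on the horizontal axis and the log2 difference lin-35 minus htz-1 on the vertical axis, red where higher and blue where lower in lin-35 by limma (adjusted p below 0.05). More of the large differences lie above 0, where 106 genes exceed 3 log2 units against 17 below 0, and circles mark genes named in the text.

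Set against N2 in the same fit, the genes that separate the mutants came from both sides. More genes were called against N2 in htz-1 than in lin-35. In lin-35 12.1% of genes were higher and 11.6% lower than in N2, and in htz-1 15.2% were higher and 16.5% lower. Over all tested genes lin-35 alone was called against N2 for 1133 and htz-1 alone for 1901. Of these, 70.1% and 58.2% were called between the mutants. Of the 1484 genes higher in lin-35 than in htz-1, lin-35 alone was called against N2 for 456 (30.7%), htz-1 alone for 539 (36.3%), both in the same direction for 197 (13.3%), both in opposite directions for 51 (3.44%) and neither for 241 (16.2%). Of the 1405 lower genes these numbers were 338 (24.1%), 568 (40.4%), 147 (10.5%), 23 (1.64%) and 329 (23.4%). The contrasts share libraries, so this sorting is a description.

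The sorting changed with the size of the difference. Among the 106 genes more than 3 log2 units higher in lin-35, lin-35 alone had left N2 for 74 (69.8%) and htz-1 alone for 10 (9.43%). Among the 17 genes more than 3 units lower, htz-1 alone had left N2 for 14 (82.4%) and lin-35 alone for 0. The large differences in both directions were thus mostly genes at a raised level in 1 mutant and near the N2 level in the other. Over all called genes, lin-35 alone accounted for 794 and htz-1 alone for 1107. Each count fell when any 1 library was left out. Which of them was larger depended on single libraries. Without the second htz-1 library or without the first N2 library, lin-35 alone accounted for more genes than htz-1 alone.

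**Figure D2:**
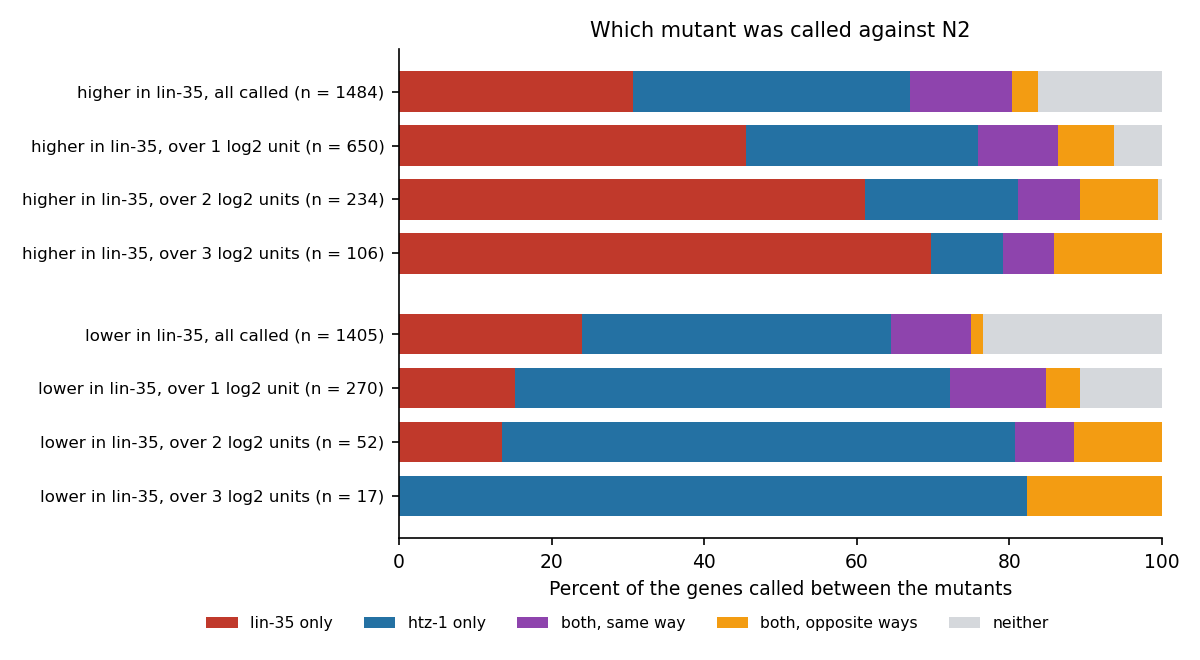
Bars show, for genes called between the mutants, the percent in which lin-35 only, htz-1 only, both or neither were called against N2, for all called genes and for those past 1, 2 and 3 log2 units. The share of lin-35 only is 30.7% of all genes higher in lin-35 and 69.8% of those past 3 units, and the share of htz-1 only is 40.4% of all lower genes and 82.4% of those past 3 units.

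The genes with the largest differences were nearly silent in 1 mutant. The chemoreceptor family gene srg-31 on chromosome V had 115 and 65.5 RPKM in lin-35 larvae, against 0.417 and 0.340 RPKM in htz-1 larvae and 0.721 and 0.393 RPKM in N2. Its difference of 6.50 (standard error 0.28, adjusted p = 4.46e-05 from limma) was the largest among genes higher in lin-35. B0507.8, also on V, had 259 and 152 RPKM in lin-35 larvae, against 1.49 and 1.79 RPKM in htz-1 larvae and 1.5 and 2.02 RPKM in N2 (6.39, standard error 0.25). Y68A4A.13 (6.46) and F42C5.3 (5.45) had the same form, with the first lin-35 library above the second.

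inx-22, a gap junction (innexin) gene of the gonad, had 112 and 101 RPKM in lin-35 larvae, against 3.23 and 3.26 RPKM in htz-1 larvae and 2.40 and 2.60 RPKM in N2. Both lin-35 libraries lay far above the other 4, and the difference of 4.67 (standard error 0.12, adjusted p = 1.59e-05 from limma) had the smallest adjusted p of all named genes. Its neighbour inx-21, its partner innexin in the germline, had 38.9 and 33.0 RPKM in lin-35 larvae, against 6.53 and 7.48 RPKM in htz-1 larvae and 4.83 and 4.30 RPKM in N2 (2.11). The ribonuclease H gene rnh-1.3 was also high in lin-35 alone (4.76), as were Y39E4B.5 (4.13), R02F2.4 (4.0) and T19C9.8 (3.70).

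In the other direction dct-8 on chromosome IV had 1.16 and 1.60 RPKM in lin-35 larvae, against 52.9 and 65.9 RPKM in htz-1 larvae and 0.378 and 0.687 RPKM in N2. Its difference was -5.13 (standard error 0.23, adjusted p = 4.73e-05 from limma), and htz-1 was the mutant that left N2. The phosphate transporter gene pitr-5 (-4.39), F56D6.8 (-4.82), W03F9.4 (-3.39) and the cytochrome P450 gene cyp-34A9 (-2.85) followed the same order, with htz-1 alone called against N2. The pair pud-3 and pud-4 on V had larger values (-6.95 and -7.02), with 0.658 and 0.741 RPKM of pud-3 in lin-35 larvae, against 215 and 85.3 RPKM in htz-1 larvae and 2.15 and 5.06 RPKM in N2. These 2 genes are near-identical copies, so how their reads were split is uncertain.

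Some genes were off in every library except those of 1 mutant. In 33 tested genes no htz-1 and no N2 library had more than 3 reads, and 31 of these were higher in lin-35, among them F37D6.3 (5.31), the pals genes pals-5 (4.82) and pals-3 (4.77), the antimicrobial-type gene fipr-17 (4.49) and the chemoreceptor gene srh-16 (4.13). In 9 tested genes no lin-35 and no N2 library had more than 3 reads, and all 9 were lower in lin-35, that is, they were on in htz-1. These include scl-11 (-4.32), C45B2.3 (-3.01) and C08E8.3 (-2.43). Such genes passed the filter on level through the mutant in which they are on, so their counts are descriptions. sdz-6 had 0 reads in both htz-1 libraries and was at least 16.6-fold higher in lin-35, against a floor of 3 reads per library. nspe-7 had 0 reads in both lin-35 libraries and was at least 22.1-fold lower in lin-35, and it belongs to a family of short near-identical genes.

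The 2 mutants moved to opposite sides of N2 in 74 genes. The RNA processing gene eol-1, a relative of the decapping enzyme DXO, had 97.7 and 55 RPKM in lin-35 larvae, against 0.888 and 0.777 RPKM in htz-1 larvae and 2.62 and 2.26 RPKM in N2 (5.64, standard error 0.25). The chitinase-like gene chil-28 (4.81), the F-box gene fbxa-182 (4.60), B0348.2 (4.32) and the claudin-like gene clc-11 (4.28) also lay above N2 in lin-35 and below it in htz-1, as in 51 genes in all. The reverse held for 23 genes.

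Of those 23, the acid phosphatase family gene pho-14 had 4.37 and 2.76 RPKM in lin-35 larvae, against 44.1 and 49.7 RPKM in htz-1 larvae and 26.5 and 23.8 RPKM in N2 (-3.73, standard error 0.18, adjusted p = 6.56e-05 from limma). The glutathione S-transferase gene gst-4, a reporter of the oxidative stress response, had 15.4 and 15.5 RPKM in lin-35 larvae, against 87.4 and 110 RPKM in htz-1 larvae and 20.2 and 24.7 RPKM in N2 (-2.79). The N2 libraries lay between the mutants in both genes, close to lin-35 for gst-4. taf-11.2, a relative of a subunit of the general transcription factor TFIID, was at lower level and followed the same order (-2.64).

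**Figure D3:**
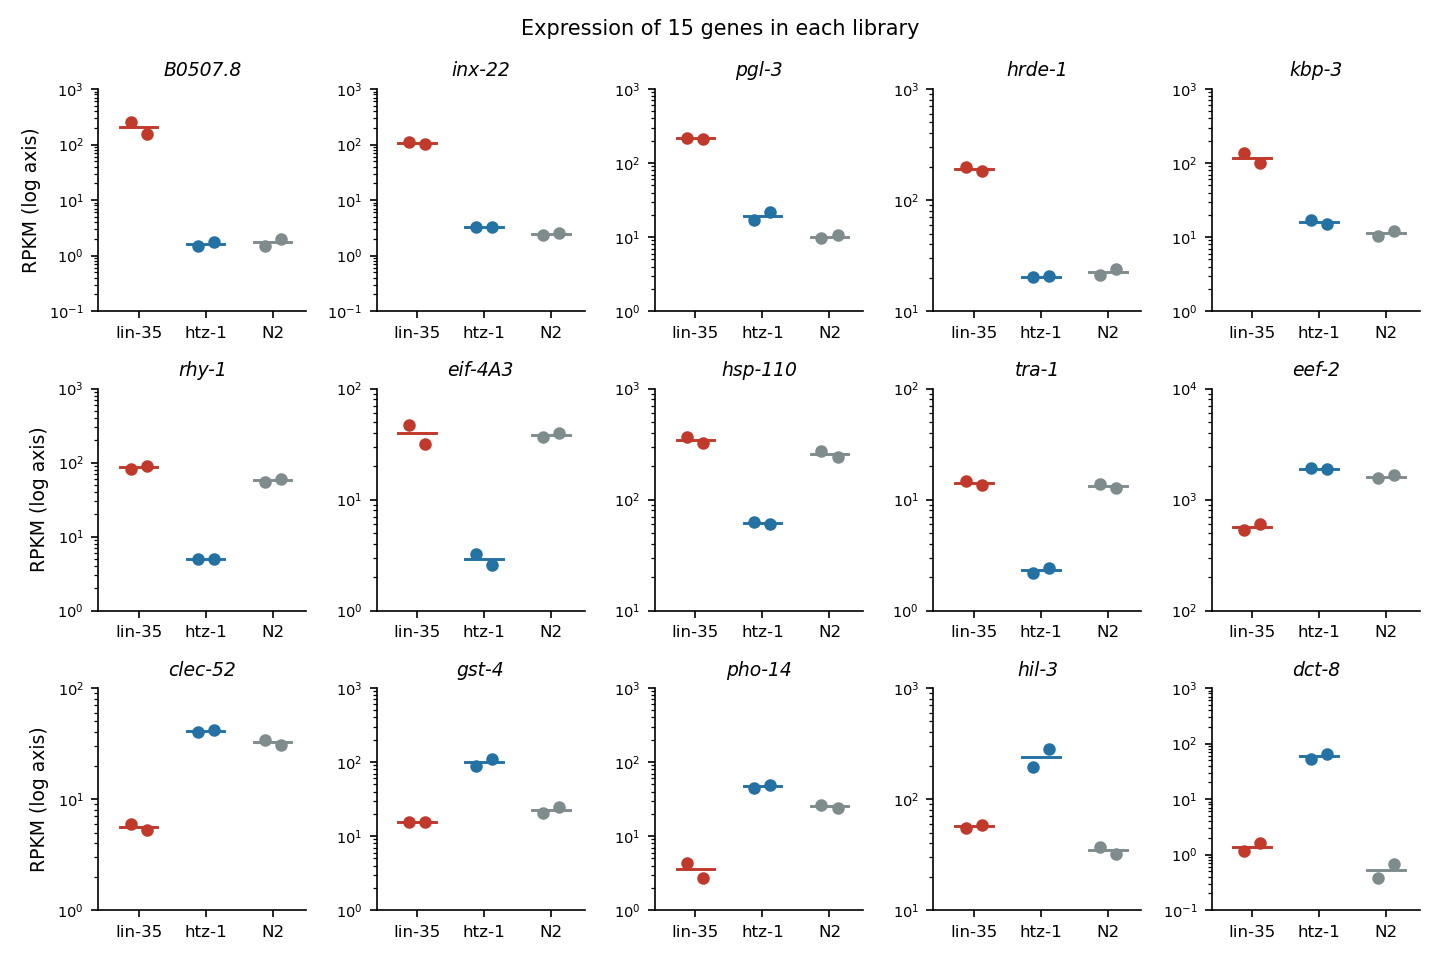
RPKM of 15 genes in each library on log axes, with points for the 2 libraries and a line for their mean in lin-35 (red), htz-1 (blue) and N2 (grey). In inx-22 the lin-35 libraries stand alone at 112 and 101 RPKM, in hsp-110 the htz-1 libraries stand alone at 62.8 and 60.1 RPKM, and in pho-14 the mutants lie on opposite sides of N2.

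The intracellular pathogen response is a set of genes that worms switch on against microsporidia and virus, and it holds many members of the pals family. Of 44 tested genes of this list 41 were higher in lin-35 than in htz-1 and none was lower, with a median difference of 3.78 against 0.00 over all tested genes. No gene of the list was lower at an unadjusted p below 0.05 or by limma-voom either. The median against N2 was 4.09 in lin-35 and 0.10 in htz-1. The median level of the tested genes was 17.9 RPKM in lin-35 larvae, 0.878 RPKM in htz-1 larvae and 0.583 RPKM in N2. Such genes could pass the filter on level through lin-35, so the counts of this list and of the pals genes are descriptions. Without the filter 40 of 49 genes of the list were higher and 0 lower (median 3.68). Of the 25 tested pals genes 24 were higher in lin-35 (median 3.87). For example, pals-14 had 92.1 and 59.1 RPKM in lin-35 larvae, against 1.27 and 0.627 RPKM in htz-1 larvae and 0.839 and 0.508 RPKM in N2 (5.57, standard error 0.29). The first lin-35 library was above the second in 41 of the 44 genes, and yet at least 40 were called without any 1 library.

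The tested members of larger families of the same defence and turnover type also included more higher than lower genes. Many members of these families did not pass the filter on level, and genes could pass it through lin-35. Of 65 tested C-type lectins, secreted sugar-binding proteins, 34 were higher and 5 lower in lin-35 (median 0.68). Without the filter 26 of 202 were higher and 4 lower, and the median was 0.00. clec-174 had 8.69 and 11.4 RPKM in lin-35 larvae, against 0.0405 and 0.571 RPKM in htz-1 larvae and 0.617 and 0.607 RPKM in N2 (3.65, standard error 0.36), and clec-12 (3.18) was also high in lin-35 alone. Of the lower lectins, clec-52 had 5.96 and 5.27 RPKM in lin-35 larvae, against 39.8 and 41.8 RPKM in htz-1 larvae and 34.1 and 30.6 RPKM in N2 (-2.92, standard error 0.11), so that lin-35 was the mutant that left N2. Without the first or the second htz-1 library 3 lectins were lower.

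Of 138 tested genes with F-box, MATH or BTB domains, which serve as substrate adaptors of ubiquitin ligases, 51 were higher and 12 lower (median 0.34). Without the filter on level 41 of 380 were higher and 8 lower, and the median was 0.01. With the filter, at least 36 were higher without any 1 library. The lower count of 12 became 4 without the first lin-35 library and 6 and 5 without the first and second htz-1 libraries. fbxa-75 (4.45), fbxa-165 (3.97) and math-14 (4.0) led, and math-14 lay below N2 in htz-1. Of the lower members, fbxb-7 had 1.15 and 1.64 RPKM in lin-35 larvae, against 5.70 and 6.17 RPKM in htz-1 larvae and 0.574 and 0.316 RPKM in N2 (-1.91). These families hold similar copies, and the reads of close neighbours may be shared.

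**Figure D4:**
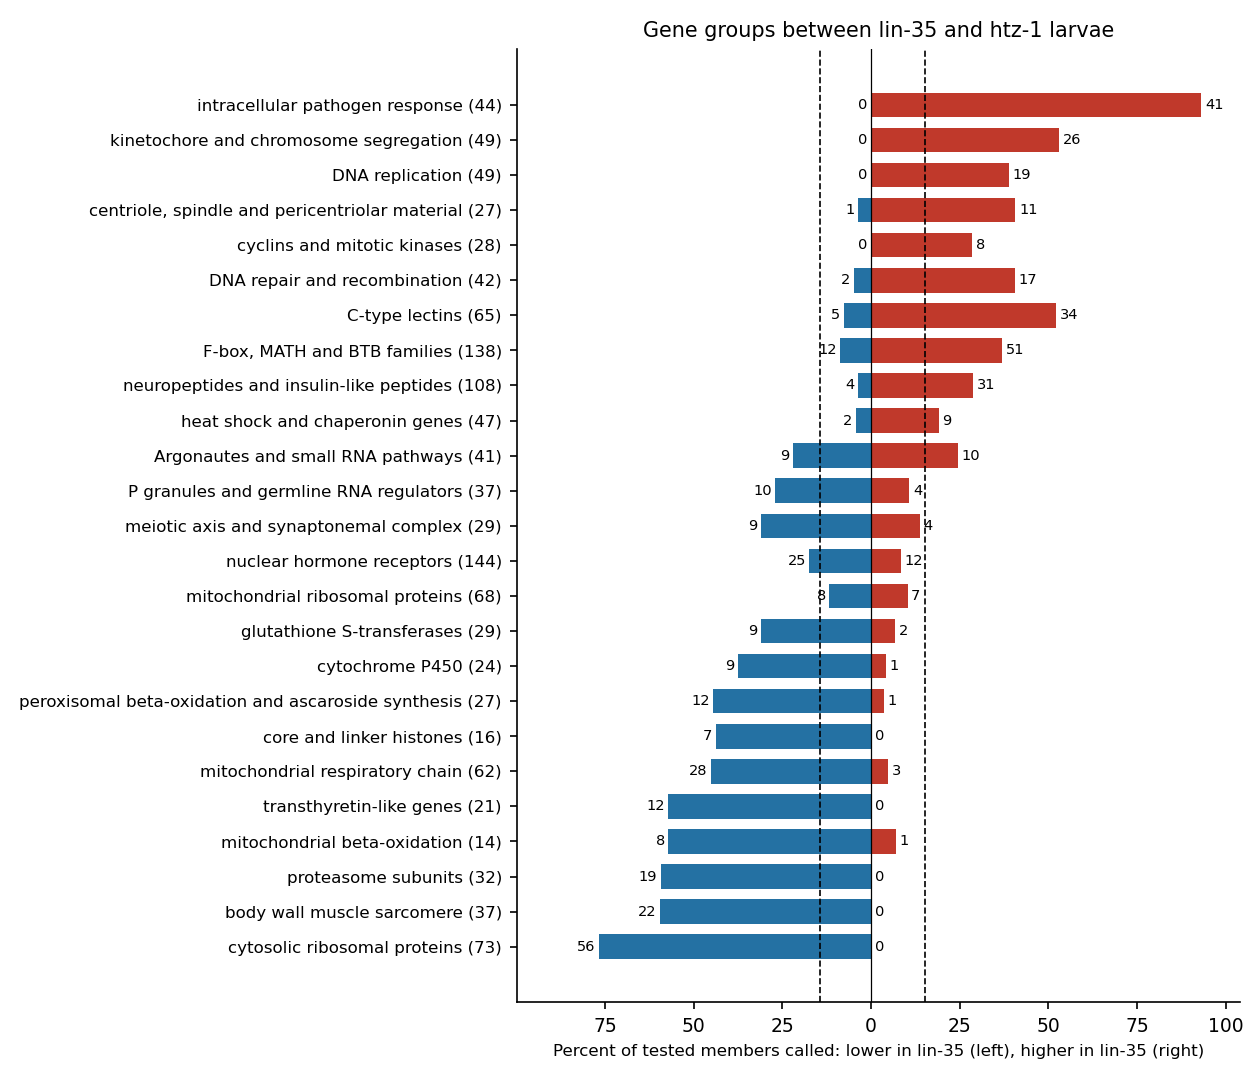
Percent of the tested members of 25 gene groups that were higher (red, right) or lower (blue, left) in lin-35 than in htz-1 by limma (adjusted p below 0.05), with the number of genes at the bar ends and the number tested in parentheses. Dashed lines give the percent over all tested genes, 15.3% higher and 14.5% lower, and the bars run from 41 of 44 pathogen response genes higher to 56 of 73 cytosolic ribosomal protein genes lower (5 with quantile normalization).

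Where cell cycle genes differed they were nearly always higher in lin-35. Of 153 tested genes of 4 lists (cyclins and mitotic kinases, kinetochore, centriole and spindle, DNA replication), 64 were higher in lin-35 and 1 was lower, with a median difference of 0.28. Many were above N2 in each mutant: the median against N2 was 0.84 in lin-35 and 0.43 in htz-1, with 101 genes called higher in lin-35 and 81 in htz-1. The count of 64 became 39 without the second htz-1 library, and the 1 lower gene, the katanin gene mei-1 (-0.47), was not called without any 1 of the 6 libraries (-0.49 to -0.45, adjusted p = 0.0529 to 0.0752 from limma). Without the second lin-35 library 45 were higher and 5 lower. With quantile normalization the counts were 60 and 2, and with the deposited RPKM 87 and 0.

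Within the 4 lists the chromosome machinery led. Of 49 kinetochore and chromosome segregation genes 26 were higher and none lower (median 0.42). In this list and in the replication and cyclin lists below, 0 genes were lower at an unadjusted p below 0.05 by limma and 0 by limma-voom. The kinetochore gene kbp-3 had 135 and 100 RPKM in lin-35 larvae, against 16.8 and 15 RPKM in htz-1 larvae and 10.4 and 12 RPKM in N2 (2.66, standard error 0.15, adjusted p = 9.36e-05 from limma). It was above N2 in both mutants, by 3.14 in lin-35 and 0.48 in htz-1, and kbp-1 (1.70), csa-1 (2.39) and the citron kinase homologue citk-1 (1.74) were also higher. The count of 26 became 14 without the second htz-1 library and 17 without the first htz-1 or the second lin-35 library.

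Of 49 DNA replication genes 19 were higher and none lower (median 0.36), with at least 14 higher without any 1 library and 29 with the deposited RPKM. The fork protection gene tipn-1, the homologue of Tipin, had 83.6 and 72.3 RPKM in lin-35 larvae, against 13.7 and 12.9 RPKM in htz-1 larvae and 9.39 and 9.29 RPKM in N2 (2.33, standard error 0.10). Geminin, gmn-1, which restrains origin licensing, was above N2 in lin-35 and below it in htz-1 (1.85), and the origin recognition gene orc-3 (1.41) and the translesion polymerase gene polh-1 (1.61) were above N2 in lin-35 alone. The condensin II gene hcp-6 had 40.6 and 36.2 RPKM in lin-35 larvae, against 12.9 and 11.9 RPKM in htz-1 larvae and 8.14 and 7.85 RPKM in N2 (1.42, standard error 0.10).

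Differences were smaller for spindle and kinase genes. Of 27 centriole, spindle and pericentriolar genes 11 were higher and 1 lower (median 0.19), among them the centriole gene sas-6 (1.21), the spindle positioning genes gpr-1 (1.03) and gpr-2 (0.97), which are close copies, and tpxl-1 (0.92), whose product activates the Aurora A kinase. Of 28 cyclins and mitotic kinases 8 were higher and none lower (median 0.10). Aurora A, air-1, had 88.4 and 87.4 RPKM in lin-35 larvae, against 44.5 and 41.6 RPKM in htz-1 larvae and 19.8 and 22.2 RPKM in N2 (0.85), and the Cdc20 homologue fzy-1 (0.76), the Polo kinase plk-1 (0.76) and Aurora B, air-2 (0.66), stood in the same order. All 4 were above N2 in both mutants. The counts of 11 and 8 became 6 and 5 without the second htz-1 library and 7 and 5 without the first lin-35 library, and the 11 became 7 without the second.

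Of 42 DNA repair and recombination genes 17 were higher and 2 lower (median 0.27), the higher ones led by the exonuclease gene exo-1 (1.37), the poly(ADP-ribose) polymerase gene parp-1 (1.28), the Fanconi helicase gene fncm-1 (1.19) and the Ku subunit gene cku-80 (1.10). For these 4, lin-35 alone was called against N2. The 17 became 8 without the second htz-1 library and 11 and 10 without the first and second lin-35 libraries. The 2 lower genes became 1 without the second lin-35 library and 0 without any other 1 library.

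DREAM-8 genes are here the L3 list of the study's supplement, genes with peaks of all 8 subunits at the promoter by ChIP-seq, which is longer than the set the study counts in its own text. Of 532 listed, 492 were in the table and 477 were tested. Of these, 129 (27%) were higher and 61 (12.8%) lower in lin-35 than in htz-1, with a median of 0.12. Over all tested genes 15.3% were higher and 14.5% lower. Against N2 the lin-35 counts were 155 higher and 70 lower and the htz-1 counts 109 higher and 70 lower. The 64 cell cycle genes on the list held 34 higher and none lower (median 0.50), and the 89 cell cycle genes off the list held 30 higher and 1 lower (median 0.18). The 404 remaining DREAM-8 genes, outside the cell cycle and repair lists, had 90 higher (22.3%) and 60 lower (14.9%) and a median of 0.06. They include genes with large differences, such as srh-16 (4.13), srd-4 (4.07) and R02F2.4 (4.0). In W02H5.2 htz-1 was the mutant that left N2, with 15.1 and 14.8 RPKM in lin-35 larvae, against 1.14 and 0.364 RPKM in htz-1 larvae and 12.7 and 10.3 RPKM in N2 (3.56). The counts of 129 and 61 became 84 and 27 without the second htz-1 library, 195 and 31 with the deposited RPKM, and the lower count was 30 without the first lin-35 library, 38 without the first htz-1 library and 39 without either N2 library.

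Of the 8 DREAM subunit genes 4 were higher in lin-35 and 1 was lower. The E2F gene efl-1 had 26.2 and 23 RPKM in lin-35 larvae, against 11.3 and 8.04 RPKM in htz-1 larvae and 8.79 and 10.0 RPKM in N2 (1.15, standard error 0.17), so that lin-35 alone left N2. Its partner dpl-1 (0.77) was above N2 in both mutants. The MuvB genes lin-9 (0.67) and lin-53 (0.36) were also higher, and lin-52 was lower (-0.66), but lin-9 was not called without the second htz-1 library (0.57, adjusted p = 0.0644 from limma), lin-52 was not called without that library (-0.55, adjusted p = 0.0683) or the first lin-35 library (-0.64, adjusted p = 0.0502), and lin-53 was not called without any 1 of 5 libraries (0.27 to 0.38, adjusted p = 0.06 to 0.0974). The difference was -0.25 for lin-54 (95% interval -0.59 to 0.08) and 0.21 for lin-37 (95% interval -0.05 to 0.47).

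Other chromatin genes separated by gene and not by group. Of 22 synMuv B and NuRD-type genes 5 were higher (22.7%) and 2 lower (9.09%), with a median of 0.02. Over all tested genes 15.3% were higher and 14.5% lower. The MTA-type NuRD gene lin-40 had 20.8 and 22.3 RPKM in lin-35 larvae, against 5.01 and 5.24 RPKM in htz-1 larvae and 20.6 and 18.9 RPKM in N2 (1.81, standard error 0.12), so htz-1 left N2. For lin-15A (0.94), lin-35 left N2. The 5 became 2 without the second lin-35 or the second htz-1 library and 3 without the first htz-1 library or either N2 library, and the 2 lower became 1 without the first lin-35 library, either htz-1 library or the first N2 library. Of 20 MES and histone methyltransferase genes 7 were higher (35%) and 3 lower (15%), with a median of -0.07. The H3K36 methyltransferase gene mes-4 (1.06) was above N2 in both mutants. The demethylase gene jmjd-2 (1.05) and the methyltransferase genes set-16 (0.79) and set-26 (0.73) were below N2 in htz-1 alone. The 7 became 4 without the first lin-35 or the second htz-1 library, and the 3 lower became 1 without the first lin-35 library. Of 15 genes of H2A.Z and its deposition complexes, htz-1 itself, ssl-1 (0.44) and mrg-1 (-0.64) were called (median 0.01). The call of ssl-1 was lost without either lin-35 library, the second htz-1 library or either N2 library (0.33 to 0.50).

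Germline genes went in 2 directions. A few P granule, meiosis and small RNA genes were far higher in lin-35, while others were lower than in htz-1. Most of the lower calls were lost without the filter on level. The P granule gene pgl-3 had 219 and 213 RPKM in lin-35 larvae, against 17 and 22 RPKM in htz-1 larvae and 9.65 and 10.7 RPKM in N2 (3.28, standard error 0.14, adjusted p = 4.49e-05 from limma). pgl-1 had 219 and 225 RPKM in lin-35 larvae, against 58.6 and 73.4 RPKM in htz-1 larvae and 53.5 and 57.5 RPKM in N2 (1.58). The germline nuclear Argonaute gene hrde-1 had 198 and 182 RPKM in lin-35 larvae, against 20.3 and 20.6 RPKM in htz-1 larvae and 21.2 and 24.1 RPKM in N2 (3.01, standard error 0.10). These 3 genes had both lin-35 libraries far above all others, and htz-1 was called against N2 only for pgl-3. The RNA-dependent RNA polymerase gene rrf-2 (1.74), the Argonaute gene sago-2 (1.48) and the dsRNA-binding gene rde-4 (1.38) were higher too.

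Among meiosis genes the axis gene him-3 had 68.6 and 64.1 RPKM in lin-35 larvae, against 10.7 and 15.9 RPKM in htz-1 larvae and 6.44 and 7.84 RPKM in N2 (2.13, standard error 0.20). The synaptonemal complex gene syp-1 (1.76) and the cohesin gene coh-3 (1.35) were also higher. The median of the 29 tested genes was -0.56, and the median against N2 was -0.05 in lin-35 and 0.60 in htz-1. Without the filter on level 3 of the 29 were higher and 0 lower. With the filter 4 were higher, 16 were not called and 9 were lower. Examples are syp-4 (-1.28) and htp-3 (-1.13), both called above N2 in htz-1 alone, but the 9 lower genes became 0 without the second htz-1 library (syp-4 -1.09, adjusted p = 0.0506, and htp-3 -0.98, adjusted p = 0.0856 from limma), 3 without the first lin-35 library, 14 without the second and 14 with quantile normalization.

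Of 37 P granule and germline RNA genes 4 were higher and 10 lower (median -0.51), or 7 and 7 with the deposited RPKM and 4 and 16 with quantile normalization. Without the filter on level 3 of 43 were higher and 3 lower. Of 41 Argonaute and small RNA genes 10 were higher and 9 lower (median 0.08, and -0.03 with quantile normalization), or 14 and 5 with the deposited RPKM. Without the filter 9 of 43 of these were higher and 1 lower. The Y-box gene cey-2, a germline mRNA-binding protein, had 19.3 and 31.6 RPKM in lin-35 larvae, against 80.9 and 106 RPKM in htz-1 larvae and 34.4 and 47.7 RPKM in N2 (-2.05, standard error 0.28), and cey-3 (-1.54) and daz-1 (-1.31) were lower as well. For cey-3 and daz-1, lin-35 was the mutant below N2. The 10 lower genes became 5 without the first lin-35 library, 17 without the second and 5 without the second htz-1 library or either N2 library. The 9 lower small RNA genes became 3 without the first lin-35 library, 0 without the second htz-1 library and 4 without either N2 library. The lin-35 libraries differed in these lists: the first was above the second in 6 of 37 and in 4 of 29 genes. The 6 germ cell markers summed to 565 and 610 RPKM in lin-35 larvae, against 259 and 316 RPKM in htz-1 larvae and 224 and 241 RPKM in N2, with 3 higher and 2 lower, and the part of germ cell number in these results was not tested.

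Histone genes, where called, were lower in lin-35 than in htz-1. Of 16 tested core and linker histone genes 7 were lower and none was higher (median -0.72, 1 higher at an unadjusted p below 0.05 by limma and 0 by limma-voom), and at least 5 were lower without any 1 library. With the deposited RPKM and with quantile normalization 1 was higher. The linker histone gene hil-3 had 55.2 and 58.2 RPKM in lin-35 larvae, against 196 and 284 RPKM in htz-1 larvae and 36.8 and 32.3 RPKM in N2 (-2.22, standard error 0.18, adjusted p = 0.000332 from limma). hil-2 (-1.91) and his-24 (-1.69) are linker histone genes too, and in all 3 htz-1 alone was called above N2. Core histone genes are near-identical copies whose reads may be shared, and his-68 (-1.18) is 1 of these. The labels describe mRNA libraries, and most core histone transcripts lack the poly(A) tail of other mRNAs. cdl-1, the histone stem-loop binding protein gene, stood equally above N2 in both mutants, with 42.1 and 42.3 RPKM in lin-35 larvae, against 39.7 and 36.6 RPKM in htz-1 larvae and 17.6 and 17.8 RPKM in N2 (-0.02, 95% interval -0.24 to 0.19).

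Among the most abundant transcripts, of 73 tested cytosolic ribosomal protein genes 56 were lower and none was higher (median -0.36, 0 higher at an unadjusted p below 0.05 by limma and 0 by limma-voom), though with quantile normalization the counts were 5 lower and 3 higher and the median was 0.00. Without the filter on level 14 of 74 were lower and 0 higher (median -0.36). Against N2 the medians of the 73 genes were -0.31 in lin-35 and 0.01 in htz-1. rpl-5 had 1184 and 1258 RPKM in lin-35 larvae, against 1899 and 1930 RPKM in htz-1 larvae and 1866 and 1914 RPKM in N2 (-0.82, standard error 0.08). The 56 became 14 without the second htz-1 library, 28 without the first lin-35 library and 31 without the first htz-1 library. Of 37 translation factors 2 were higher (5.41%) and 6 lower (16.2%, against 14.5% of all tested genes), with a median of 0.06. The counts were 15 higher and 5 lower with the deposited RPKM (median 0.23) and 5 higher and 2 lower with quantile normalization. The elongation factor gene eef-2 stood out, with 535 and 607 RPKM in lin-35 larvae, against 1909 and 1891 RPKM in htz-1 larvae and 1563 and 1651 RPKM in N2 (-1.91, standard error 0.10, adjusted p = 7.56e-05 from limma). The 68 mitochondrial ribosomal protein genes gave 7 higher (10.3%) and 8 lower (11.8%), both below the shares of all tested genes (median 0.05). With the deposited RPKM they gave 19 higher and 2 lower (median 0.22). Their medians against N2 were -0.48 for lin-35 and -0.57 for htz-1. Without the first lin-35 library 2 were higher and 4 lower, and without the second htz-1 library 3 and 3.

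Proteasome genes were lower in lin-35 too, with lin-35 close to the N2 level. Of 32 tested subunits 19 were lower in lin-35 and none was higher (median -0.32, 0 higher at an unadjusted p below 0.05 by limma and 0 by limma-voom), with medians against N2 of -0.09 for lin-35 and 0.30 for htz-1, so it was htz-1 that was called against N2, in 15 of 32 genes. rpn-10 had 78.2 and 74.2 RPKM in lin-35 larvae, against 106 and 116 RPKM in htz-1 larvae and 73.4 and 67.4 RPKM in N2 (-0.71). The 19 became 11 with quantile normalization and 9 with the deposited RPKM (median -0.15), 8 without the second htz-1 library, 9 without the first lin-35 library and 12 without either N2 library. Transthyretin-like genes, a family of secreted proteins, had 12 of 21 lower and none higher (median -0.55, 1 higher at an unadjusted p below 0.05 by limma and 0 by limma-voom), and the median against N2 was -0.04 in lin-35 and 0.58 in htz-1. ttr-49 (-1.58) and ttr-45 (-1.02) led them. Without the filter on level, which genes could pass through htz-1, 7 of 34 transthyretin-like genes were lower and 0 higher (median -0.35).

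Body wall muscle genes were lower in lin-35, while htz-1 stayed near N2 on the median. Of 37 tested sarcomere genes 22 were lower and none was higher (median -0.36, 0 higher at an unadjusted p below 0.05 by limma and 0 by limma-voom), and the medians against N2 were -0.38 in lin-35 and -0.02 in htz-1. The myosin light chain gene mlc-1 had 618 and 724 RPKM in lin-35 larvae, against 1018 and 936 RPKM in htz-1 larvae and 1154 and 1168 RPKM in N2 (-0.72, standard error 0.10). Troponin I, unc-27 (-0.71), and mlc-3 (-0.65) were lower too. Without the filter on level 9 of the 37 sarcomere genes were lower and 0 higher (median -0.36). The 4 muscle markers unc-54, myo-3, unc-15 and lev-11 summed to 1407 and 1654 RPKM in lin-35 larvae, against 1896 and 1985 RPKM in htz-1 larvae and 1998 and 2140 RPKM in N2, and all 4 were called lower. The 22 became 11 with quantile normalization (median -0.18) and 13 with the deposited RPKM (median -0.19), and 9 without the first lin-35 library and 13 and 10 without the first and second htz-1 libraries.

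Counts of neuronal genes higher in lin-35 stand beside the 15.3% of all tested genes that were higher. Of 108 tested neuropeptide and insulin-like genes 31 were higher (28.7%) and 4 lower (median 0.25). Without the filter on level 11 of 127 were higher and 2 lower (median 0.21). Of 38 synaptic genes 7 were higher (18.4%) and none lower (median 0.02, and -0.05 with quantile normalization). Among these, 3 were lower at an unadjusted p below 0.05 by limma and 1 by limma-voom. nlp-69 had 18.9 and 10.3 RPKM in lin-35 larvae, against 4.89 and 3.98 RPKM in htz-1 larvae and 10.2 and 9.70 RPKM in N2 (1.39), and the acetylcholine receptor gene unc-63 (2.19) was also below N2 in htz-1. The large potassium channel gene slo-1 (0.74) and egl-2 (1.75) were among 8 higher (18.6%) and 1 lower of 43 potassium channels, or 5 and 1 with quantile normalization. The 5 neuron markers summed to 340 and 342 RPKM in lin-35 larvae, against 318 and 307 RPKM in htz-1 larvae and 288 and 276 RPKM in N2. The 31 neuropeptide genes became 9 without the second htz-1 library, 17 without the first, 20 without the first lin-35 library or either N2 library and 49 with the deposited RPKM. The 4 lower ones became 9 without the second lin-35 library and 2 without either htz-1 library. The 7 synaptic genes became 3 and 4 without the second and first htz-1 libraries. The 8 potassium channels became 4 without the first lin-35 library, the second htz-1 library or either N2 library, and 5 without the first htz-1 library, and the 1 lower channel gene was not called without either htz-1 library or the second lin-35 library.

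Of the 539 genes higher in lin-35 for which htz-1 alone had left N2, some are named here. The co-chaperone gene hsp-110 had 364 and 320 RPKM in lin-35 larvae, against 62.8 and 60.1 RPKM in htz-1 larvae and 274 and 240 RPKM in N2 (2.29, standard error 0.09, adjusted p = 3.78e-05 from limma). The J-domain gene dnj-13 (2.02) and the small heat shock gene hsp-17 (1.03) had the same order. Of 47 heat shock and chaperonin genes 9 were higher (19.1%, against 15.3% of all tested genes) and 2 lower (4.26%, against 14.5%). Their median was 0.05, and with the deposited RPKM 15 were higher and 2 lower. The 2 lower became 4 without the second lin-35 library. eif-4A3, the helicase of the exon junction complex, had 47.4 and 31.5 RPKM in lin-35 larvae, against 3.25 and 2.58 RPKM in htz-1 larvae and 36.8 and 39.9 RPKM in N2 (3.36, standard error 0.19). The sex determination factor gene tra-1 had 14.7 and 13.4 RPKM in lin-35 larvae, against 2.18 and 2.42 RPKM in htz-1 larvae and 13.7 and 12.8 RPKM in N2 (2.22).

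In these 3 genes both htz-1 libraries lay below all others, and htz-1 alone was called against N2. So it was for the TCF gene pop-1 (1.37), the cell polarity gene lin-7 (2.79), the splicing factor gene sfa-1 (1.28), the lipid-binding gene lbp-3 (2.06) and the nuclear receptor gene nhr-17 (3.63). Nuclear receptors as a family had 12 higher (8.33%) and 25 lower (17.4%) of 144, with a median of -0.08. Over all tested genes 15.3% were higher and 14.5% lower. With the deposited RPKM 17 receptors were higher and 16 lower (median 0.07). The 25 became 14 without either lin-35 library and 12 and 8 without the first and second htz-1 libraries, and the 12 became 5 without the second htz-1 library.

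Some hypoxia and sulfide genes were low in htz-1 as well. rhy-1, a membrane protein that keeps the hypoxia factor HIF-1 in check, had 81.3 and 90.8 RPKM in lin-35 larvae, against 4.94 and 5.04 RPKM in htz-1 larvae and 54.1 and 60.9 RPKM in N2 (3.81, standard error 0.12, adjusted p = 2.75e-05 from limma), above N2 in lin-35 and far below it in htz-1. The sulfide oxidising gene sqrd-1 (0.74) and semo-1 (0.52) were below N2 in both mutants and lower in htz-1. Of 8 tested genes 5 were higher and 2 lower (median 0.45), and the medians against N2 were -0.36 in lin-35 and -1.0 in htz-1. For this list 7 further genes were not found in the deposited table. The 5 became 3 and 2 without the first and second htz-1 libraries, when sqrd-1 was not called (0.70, adjusted p = 0.053 and 0.77, adjusted p = 0.0543 from limma), and the 2 lower became 0 without either of these and 1 without the first lin-35 library or either N2 library.

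Detoxification genes that separated the mutants were mostly lower in lin-35. Of 24 tested cytochrome P450 genes 9 were lower in lin-35 and 1 was higher (median -0.51). Their medians against N2 were -0.17 for lin-35 and 0.48 for htz-1. Of 29 glutathione S-transferase genes 9 were lower and 2 higher (median -0.37). Genes of both families could pass the filter on level through htz-1. Without the filter 5 of 45 P450 genes were lower and 1 higher (median -0.35). For the transferases 6 of 35 were then lower and 1 higher (median -0.31). cyp-14A2 (-3.04), gst-35 (-1.62) and gst-10 (-1.47) were high in htz-1 alone, while cyp-37B1 was above N2 in both mutants, with 11.8 and 14.7 RPKM in lin-35 larvae, against 35.2 and 31.5 RPKM in htz-1 larvae and 1.05 and 1.92 RPKM in N2 (-1.47). Of 23 glucuronosyltransferase genes 6 were higher and 3 lower (median -0.11, and 0.06 with the deposited RPKM), with medians against N2 of -0.69 for lin-35 and -0.90 for htz-1. ugt-52 had 2.12 and 2.45 RPKM in lin-35 larvae, against 13.3 and 17.8 RPKM in htz-1 larvae and 0.533 and 0.525 RPKM in N2 (-2.66). The 6 higher genes became 1 without the second htz-1 library, 2 and 3 without the first and second lin-35 libraries and 3 without either N2 library, and the 3 lower genes became 5 without the first htz-1 library.

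Beta-oxidation genes that separated the mutants were mostly lower in lin-35. Of 27 genes of peroxisomal beta-oxidation and ascaroside (pheromone) synthesis 12 were lower and 1 higher (median -0.34). Of 14 tested genes of mitochondrial beta-oxidation 8 were lower and 1 higher (median -0.50), and 12 further genes listed for it were not found in the deposited table. The acyl-CoA oxidase gene acox-3 had 24.7 and 23.9 RPKM in lin-35 larvae, against 77.0 and 91.4 RPKM in htz-1 larvae and 88.0 and 119 RPKM in N2 (-1.94, standard error 0.16), so lin-35 was the mutant that left N2, and acs-7 (-2.24) had the same form. maoc-1 was below N2 in both mutants (-1.08). The 12 became 7 without the second lin-35 library. The 1 higher peroxisomal gene was not called without the first htz-1 library, and the 1 higher mitochondrial gene without the first lin-35 library, either htz-1 library or either N2 library. Of 21 desaturase, elongase and lipid storage genes 5 were higher and 5 lower (median -0.06, and 0.11 with the deposited RPKM), with 3 and 2 without the first lin-35 or the second htz-1 library. The arginine kinase gene argk-1, which buffers ATP, had 42.8 and 23.4 RPKM in lin-35 larvae, against 156 and 177 RPKM in htz-1 larvae and 315 and 209 RPKM in N2 (-2.54, standard error 0.28).

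In glycolysis, gluconeogenesis and sugar storage 12 of 28 genes were lower and 4 higher (median -0.27). The higher ones include the near-identical GAPDH genes gpd-1 (1.67) and gpd-4 (2.16), whose reads may be shared, and pck-1 (0.73). Of 62 respiratory chain genes 28 were lower and 3 higher (median -0.24), and the 28 became 13 with quantile normalization (median -0.08), 16 with the deposited RPKM (median -0.07), 11 without the second htz-1 library and 16 without the first lin-35 library. Most differences were small, as in atp-5 (-0.65), but the complex III core protein gene ucr-2.3 was higher, with 100 and 101 RPKM in lin-35 larvae, against 27.4 and 28.4 RPKM in htz-1 larvae and 19.2 and 20.8 RPKM in N2 (1.66, standard error 0.10). The catalase genes ctl-1 (-1.42), ctl-2 (-1.28) and ctl-3 (-1.50) were lower together and are similar copies. sod-1, cytosolic superoxide dismutase, was at 116 and 82.3 RPKM in lin-35 larvae, against 212 and 192 RPKM in htz-1 larvae and 222 and 206 RPKM in N2 (-1.22).

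Genes that left N2 the same way in both mutants were called between the mutants about as often as all tested genes. In 1093 genes both mutants were called on the same side of N2. Of these, 344 (31.5%) were called between the mutants, against 29.8% of all tested genes. For 554 of the 1093 (50.7%) the 95% interval of the difference between the mutants lay within 1.5-fold in either direction. Over all tested genes this held for 3896 (40.3%). The calls against N2 and these intervals rest on the same fitted spread, so the 2 shares are descriptions. Of the 516 genes above N2 in both, 138 were higher and 86 lower in lin-35 than in htz-1 and 175 had such a narrow interval. Of the 577 below N2 in both, 59 were higher, 61 were lower and 379 had a narrow interval.

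Narrow intervals beside a change of over 1 log2 unit from N2 in both mutants were found for 30 genes, 10 above and 20 below N2. The mitochondrial chaperonin gene hsp-60 had 111 and 113 RPKM in lin-35 larvae, against 110 and 105 RPKM in htz-1 larvae and 261 and 235 RPKM in N2 (-0.12, 95% interval -0.31 to 0.08). The lactate dehydrogenase gene ldh-1 had 136 and 124 RPKM in lin-35 larvae, against 109 and 109 RPKM in htz-1 larvae and 239 and 231 RPKM in N2 (0.08, 95% interval -0.09 to 0.26). ugt-46 (-0.10, 95% interval -0.33 to 0.12) and the peroxisome gene prx-11 (-0.28, 95% interval -0.52 to -0.04) were also below N2 in both, and only the interval of prx-11 among these 4 lay wholly on 1 side of 0.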

How the data were processed

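RNA-seq libraries of whole L3 larvae (2 lin-35, 2 htz-1 and 2 N2) were grouped by the labels. The authors aligned reads to WS220/ce10 with BWA, counted them per gene with HTSeq and deposited RPKM values for each library after leaving out genes that oscillate during larval growth. The table's own fold changes and p-values were not used. Library totals were recovered from the RPKM steps, which gave whole reads for all 15568 genes (tolerance 0.002 reads, 192 genes raised by a common factor).

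RPKM were divided by median-of-ratios size factors (0.946 to 1.108), and log2(RPKM + 0.5) was tested, for genes averaging 1 RPKM or more, with limma 3.58.1 in R 4.3.3 (variance trend, 3 genotypes in 1 fit, two-sided, with 3 degrees of freedom among samples and 4.01 from the prior, Benjamini-Hochberg at 0.05). The authors tested counts with DESeq2. Tested on simulated data of lin-35 minus htz-1 with 9679 genes, the fit recovered 90 of 100 genes changed by 1 log2 unit and 100 of 100 changed by 2. The simulated reads had a single fixed spread for all genes, not taken from these libraries. This recovery is therefore a check of the code and not the sensitivity of the test in these data. Alternatives covered scaling, pseudocount, filter, replicate block, 2 genotypes only, no trend, limma-voom on recovered reads and each library left out.

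Sequence names were matched to RefSeq symbols (WBcel235) for 15397 genes, and 171 were not matched. Some lists are incomplete, because listed genes were not found in the deposited table. These were 12 of mitochondrial beta-oxidation, 12 of desaturases, elongases and lipid storage, and 11 of heat shock and chaperonin genes. Sarcomere genes and sugar metabolism lacked 9 each, and hypoxia and sulfide genes 7. Genes were named by rule: the largest differences in each direction, on opposite sides of N2 and in the DREAM-8 list, up to 4 called members of each gene list per direction, DREAM subunits, genes the study names (sqv-1 was not among the genes tested) and shared genes with narrow intervals. Members of runs of neighbours and genes with at most 3 reads outside 1 mutant were chosen after their values were seen. The members and lists were chosen with earlier results of these data known. The ChIP-seq data were not analysed here.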

Additional observations from a re-analysis of the deposited data

How the results depend on the processing

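Depth limits genes near 1 RPKM, where 3 reads in a gene of 1 kb are 0.164 to 0.221 RPKM, and 2 libraries per genotype limit every test. Directions of named genes did not turn round under any alternative for a called gene. With the RPKM as deposited 2286 genes were higher and 815 lower, with 195 DREAM-8 genes higher. Without a filter all 15568 genes were tested, and 1031 were higher and 774 lower. The list counts without the filter stand beside these totals. In that fit 0 genes passed the stricter thresholds by limma (305 by limma-voom with the filter) and 664 had only htz-1 called against N2. With only lin-35 and htz-1 in the fit 73 genes passed the stricter thresholds, and with no variance trend 78, and the cause was not tested.

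Where a library was left out, the other library of its genotype was taken to vary as the remaining genotypes do. Higher genes then numbered 859 to 1222 and lower genes 622 to 1172. The stricter set held 13 to 96, cell cycle genes higher 39 to 53 and DREAM-8 genes higher 84 to 123. Only lin-35 was called against N2 for 486 to 699 genes and only htz-1 for 473 to 1033. The other alternatives (quantile normalization, pseudocounts of 0.1 and 1, a mean RPKM of at least 5 and limma-voom on recovered reads) kept all these counts within 1.5 times.

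Replicate numbers are shared between genotypes, but deviations of same-numbered lin-35 and htz-1 libraries correlated at 0.02, those of lin-35 and N2 at 0.32 and those of htz-1 and N2 at 0.10. Not every pair was over 0.1, so the numbers were not taken as a pairing. With a replicate block 1638 genes were higher and 1580 lower, 253 passed the stricter thresholds, and 65 cell cycle genes were higher.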

Other observations

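In some gene groups not described so far, the share lower in lin-35 by limma was above the 14.5% of all tested genes. In these groups the share higher was not above the 15.3% of all tested genes. Among them were aminoacyl-tRNA synthetases (6 of 31 lower, 1 higher) and sperm genes (2 of 7 lower, 1 higher). Of 38 tested lysozyme, saposin and antimicrobial genes 5 were higher (13.2%) and 11 lower (28.9%) in lin-35 (median difference -0.32). Without the filter on level 1 of 71 was higher and 6 were lower, and the median was 0.00. Genes of this list could pass the filter through 1 mutant, so its counts are descriptions. The 5 and 11 became 2 and 7 without the second htz-1 library, and 3 were higher without either lin-35 library. Of 16 short-chain dehydrogenases 9 were lower (56.2%) and 1 was higher (6.25%), with a median of -0.53 and at least 8 lower without any 1 library. The 1 higher gene was not called without either lin-35 library, the second htz-1 library or either N2 library. Of 20 genes of oxidative and heavy metal stress 3 were higher (15%), or 1 without the second htz-1 library, and 6 were lower (30%, median -0.18).

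Some of the genes that separate the mutants lie side by side. Runs of at least 5 neighbouring tested genes called in 1 direction, in the order of the RefSeq gene table, numbered 11, of which 10 were higher in lin-35. The longest held 13 genes on chromosome I, mostly pals genes (median difference 4.33), and the next 9 genes on V that include B0507.8 and droe-8 (median 3.03). Others were 6 genes on II with fbxa-163 to fbxa-166 and C08E3.13 (median 3.19), 6 lectin genes on IV with clec-67 and clec-174 (median 1.41), 5 genes on I with mis-12, inx-22 and inx-21 (median 2.60) and 5 genes on V with skr-3 and clc-11 (median 2.25). The run lower in lin-35 held 5 genes on III, C48B4.6 to C48B4.11 (median -1.15). These runs were found after the values were seen and have no test.

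By chromosome, the share of tested genes higher in lin-35 than in htz-1 ran between 12.1% (X, 1319 genes) and 18% (V, 1787 genes), and the share lower between 13.6% (II) and 15.8% (V). The median difference was between -0.03 and 0.02 on all 6 chromosomes.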
